A study of Rattus norvegicus with 30 samples.

Results

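A set of 200 genes was low in the tissue that had grown into a nerve conduit by day 7 after repair, and was back near the level of healthy nerve by day 21, after immediate and after delayed repair alike. The members were chosen from the group means of log2(CPM + 1), where CPM scales a gene's count to a library total of 1000000. A gene qualified when its mean was at least 1.5 below that of control nerve at day 7 in both repairs and within 0.75 of control at day 21 in both. Of the 32545 genes listed, 2315 were that low at day 7 in both repairs, and 467 of these (20.2%) also met the bounds at day 21. The 467 were ranked by the smaller of their gains from day 7 to day 21 in the 2 repairs, and the 200 highest were kept, 0.615% of all genes listed. The levels in control nerve and at days 7 and 21 therefore chose the members. They are given as a description, with no test, and only the day 14 libraries were left out of the choice.

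The libraries came from the median nerve of adult female rats labelled WT. Injury was a cut with a gap of 8 mm, closed by a 10 mm conduit of chitosan, a polysaccharide derived from chitin. The conduit was placed at once in the immediate repair and 3 months after the injury in the delayed repair, and what regenerated inside it was collected on day 7, 14 or 21 from the repair. At those days there were 4, 4 and 5 libraries of immediate repair and 5, 4 and 3 of delayed repair, beside 5 of untreated healthy nerve. The conduit tissue is new tissue bridging a gap, and control is uncut nerve, so a difference in cell make-up and one in treatment cannot be told apart. In bulk tissue, fewer cells of a type and less RNA per cell cannot be told apart.

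A cut nerve loses the axons beyond the cut by Wallerian degeneration, in which Schwann cells break down their myelin and macrophages clear the debris. Inside an empty conduit a fibrin clot forms first. Fibroblasts, blood vessels and Schwann cells then enter it from the nerve ends, and axons follow along them. Nerve tissue proper, with its Schwann cells, axons, vessels and perineurial sheath, is thus absent from an early bridge and is built up over the following weeks.

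The deposited table gives Ensembl gene IDs without symbols, and 0 of the IDs matched the gene table used here. No member could be assigned to a cell type or pathway, and the tissue label could not be checked against marker genes. Members are therefore described by their values and by their rank in the set, and 4 of them by ID. Total counts lay between 11958242 and 17334752 per library, and all 200 members were among the 16015 genes that passed the filter on low counts. Replicates carry numbers in the labels but no statement of separate animals, so p-values measure only the spread between these samples, which may be technical. No batch is named in the labels.

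The members covered a wide range of levels in healthy nerve. Their mean in the 5 control libraries ran from 4.77 to 7738 CPM, with a median of 46.3 CPM against 16.6 CPM over all genes tested. In control, 53 members had at least 100 CPM and 20 had under 10 CPM. Together the 200 genes took 28222 ± 2592 CPM of a control library (SD, n = 5). The most abundant member, of rank 118, accounted for 7738 ± 1764 CPM of that sum.

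At day 7 the members were reduced, and few were at 0 counts in every library of a repair. After immediate repair the members' difference from control had a median of -3.43 on the log2(CPM + 1) scale and ran from -7.89 to -2.03. After delayed repair the median was -2.89, with a range from -5.91 to -1.63. The difference was at most -4 in 56 members after immediate repair and in 18 after delayed repair. Only 5 members had 0 counts in all 4 immediate libraries, and 2 had 0 counts in all 5 delayed libraries. A count of 0 allows up to 3 counts, which is 0.173 to 0.251 CPM at the depth of the day 7 libraries, counting error alone considered. Every day 7 library lay below every control library in 191 members after immediate repair, against 31.4% of all genes tested, and in 181 after delayed repair, against 26.7%. The rule used this contrast, so nothing is read from those shares.

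The libraries of day 7 differed widely in how low the members were. The level of a member in a library was also expressed as a percentage of its control mean. Over the 200 members, the median of that percentage was 18.6%, 7.04%, 3.60% and 0.352% in immediate repair replicates 1, 2, 3 and 4. It was 1.22%, 3.68%, 18.1%, 18.7% and 29.2% in delayed repair replicates 1 to 5. The libraries of the 2 repairs were interleaved, and immediate replicate 4 and delayed replicate 1 were the lowest of their groups.

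Gene by gene, the extremes fell to the same libraries. Immediate replicate 4 was the lowest of its group in 135 members, against 38.5% of all genes tested, and immediate replicate 1 was the highest in 172, against 34.3%. Delayed replicate 1 was the lowest of its group in 174 members, against 41.8% of all genes, and delayed replicate 5 the highest in 117, against 24.1%. In immediate replicate 4, 146 members were under 1 CPM and 66 were at 0 counts. In immediate replicate 1 those numbers were 39 and 6. In delayed replicate 1, 122 members were under 1 CPM and 38 at 0, against 18 and 3 in delayed replicate 5. The lowest libraries of each repair were also the shallowest, with 11958242 counts in immediate replicate 4 and 12176007 in delayed replicate 1, against 13533214 to 17334752 in the other 7. The part of depth in the spread of the members at day 7 was not tested. The group means ± SD of the library medians on the log2(CPM + 1) scale were -3.43 ± 1.08 (n = 4) and -2.85 ± 1.19 (n = 5).

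**Figure D1:**
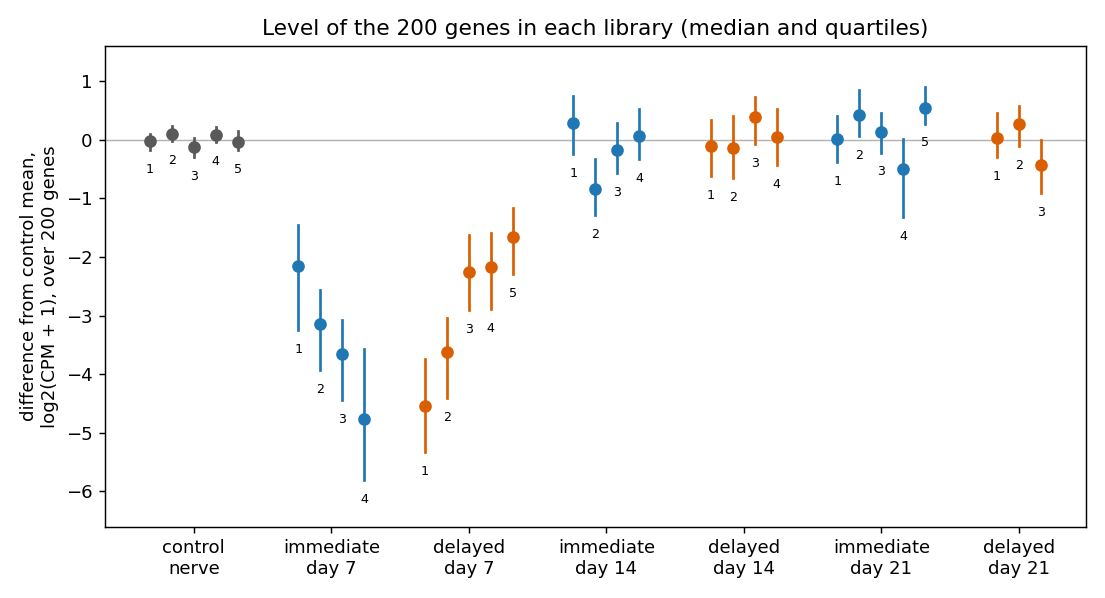
Difference of the 200 genes from the control mean in each library, on the log2(CPM + 1) scale, with the point at the median over genes and the bar from the lower to the upper quartile. The numbers are the labels' replicate numbers, and colours mark control (grey), immediate repair (blue) and delayed repair (orange). The medians lie between -4.77 and -1.66 at day 7 and between -0.83 and 0.55 at days 14 and 21.

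The gap between the repairs at day 7 was small beside this spread. Delayed repair had the higher group mean in 185 of the 200 members and the lower in 14, with a median difference of 0.58. In 0 of the 200 members did the libraries of the 2 repairs separate without overlap. The rule used the day 7 values, and the matching shares over all genes are not given here. Nothing about the members is therefore read from these counts. The summed level of the members was 5592 ± 5920 CPM (SD, n = 4) after immediate repair, with 14017 CPM in replicate 1 and 454 CPM in replicate 4. It was 6594 ± 4664 CPM (SD, n = 5) after delayed repair, with 704 CPM in replicate 1 and 10462 CPM in replicate 3. The highest and lowest libraries of a group thus differed far more than the group means did.

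The most abundant member, of rank 118, showed the same spread. In control its level was 6169, 6956, 7702, 7125 and 10737 CPM in replicates 1 to 5. At day 7 it was 6414, 2358, 1391 and 18.4 CPM in the 4 immediate libraries. In the 5 delayed libraries it was 235, 932, 4608, 4174 and 2356 CPM. Immediate replicate 1 was thus within the control range for this gene, while replicate 4 held next to none of it. At day 14 it stood at 10595 ± 1822 CPM after immediate and 11366 ± 699 CPM after delayed repair (SD, n = 4 each). At day 21 it stood at 9713 ± 844 CPM (n = 5) and 9539 ± 857 CPM (n = 3).

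The 1525 genes that were low at day 7 and still below -0.75 at day 21 in both repairs gave a narrower spread between the day 7 libraries. Their median difference from control ran from -3.49 to -2.93 over the 4 immediate libraries, against -4.77 to -2.16 in the 200 members. Over the 5 delayed libraries it ran from -3.53 to -2.41, against -4.54 to -1.66 in the members. The lowest library was the same in both sets of genes, immediate replicate 4 and delayed replicate 1. These ranges are a description of sets that the day 7 and day 21 values defined.

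**Figure D2:**
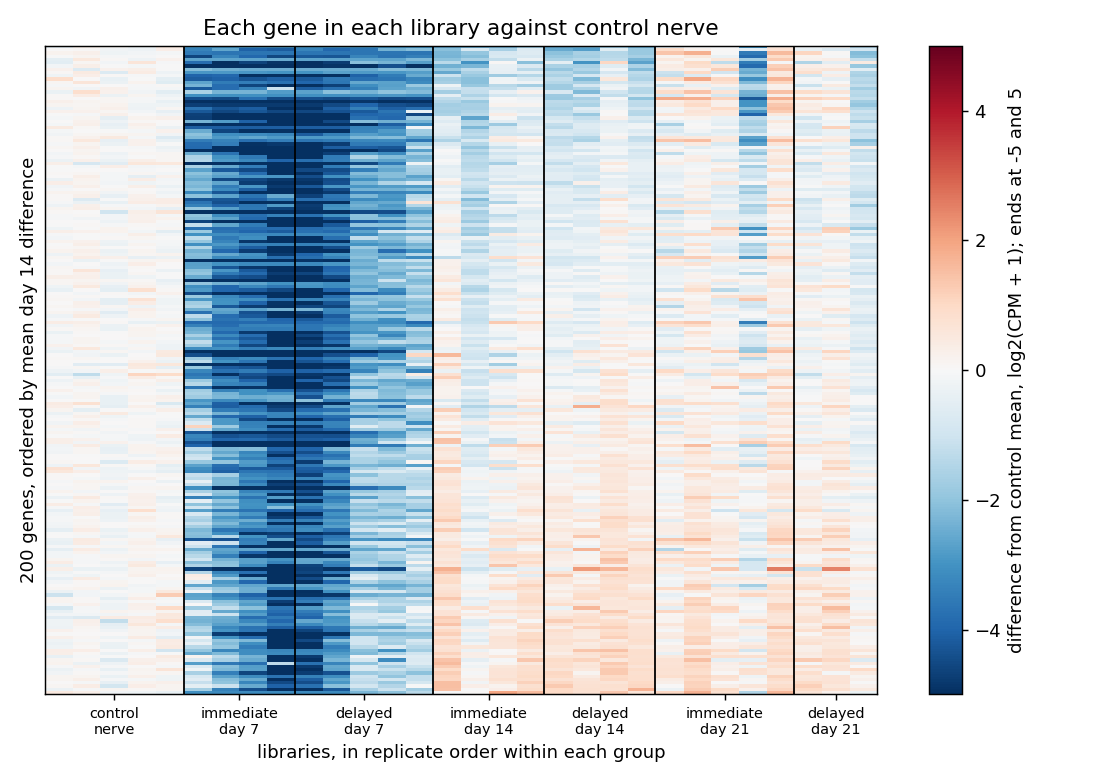
Difference of each of the 200 genes (rows) from its control mean in each of the 30 libraries (columns), in log2(CPM + 1), with blue lower and red higher and colours ending at -5 and 5. Rows are ordered by the mean difference at day 14, lowest at the top, and the day 7 columns are mostly blue. Immediate day 21 replicate 4 and delayed day 21 replicate 3 are blue mainly in the top rows.

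In the day 14 libraries, which the choice of members had not used, most of the set was already near the level of healthy nerve. The control means that define this level had been used in the choice. The median difference from control was -0.14 after immediate repair, with quartiles at -0.59 and 0.27 and a range from -2.30 to 0.89. After delayed repair it was 0.06, with quartiles at -0.41 and 0.48 and a range from -2.36 to 1.08. Within 0.75 of control lay 166 members after immediate repair, with 32 below and 2 above that range. After delayed repair 155 lay within, 27 below and 18 above. The 1525 genes still low at day 21 had medians of -2.14 and -2.11 at day 14 in immediate and delayed repair, and 0.787% and 2.10% of them lay within 0.75 of control. Day 21 values and the same control means defined both sets, so nothing is read from this contrast. Over all genes tested, the median size of the edgeR log2 fold change against control was 0.69 after immediate and 0.70 after delayed repair. In the members it was 0.41 and 0.47. The share of all genes within 0.75 of control is not given here.

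The median member reached 53.9% to 122% of its control mean in the 4 immediate libraries of day 14. Immediate replicate 2 was the lowest of them, at 53.9%, and replicates 1, 3 and 4 stood at 122%, 86.3% and 103%. In the 4 delayed libraries the median member reached 91.9%, 89.4%, 129% and 103% in replicates 1 to 4. The lowest delayed library was thus above the 2 lowest immediate ones. The group means ± SD of the library medians were -0.16 ± 0.49 after immediate and 0.05 ± 0.25 after delayed repair on the log2(CPM + 1) scale (n = 4 each). Immediate replicate 2 was the lowest of its group in 152 members, against 26.8% of all genes tested.

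Set against the gain from day 7 to day 21 on the log2(CPM + 1) scale, little of the change was left for the third week. The rule ranked the members by this gain, so the shares are a description. A high share on this scale can leave a large change in CPM. After immediate repair the member of rank 1 had made 89.3% of its gain, with a mean of 102 CPM at day 14 and 204 CPM at day 21. The gain had a median of 3.51 on the log2(CPM + 1) scale after immediate repair and 2.73 after delayed repair. By day 14 the median member had made 94.6% of it after immediate repair, with quartiles at 87.9% and 99.4%. After delayed repair the median was 105%, with quartiles at 96.5% and 110%, so the typical group mean was slightly higher at day 14 than at day 21. The delayed day 21 mean rests on 3 libraries, with median differences from control of 0.03, 0.26 and -0.44 in replicates 1 to 3. Delayed replicate 3 lowered that mean, and the shares without this library are not given here. At least 80% of the gain had been made by 180 members after immediate repair, by 183 after delayed repair and by 175 after both. At day 14, 46 members after immediate and 131 after delayed repair stood at or above their own day 21 mean. The count of 131 depends on the same 3 delayed libraries of day 21. Under 50% of the gain had been made by 3 and 5 members, and the 3 were among the 5.

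**Figure D3:**
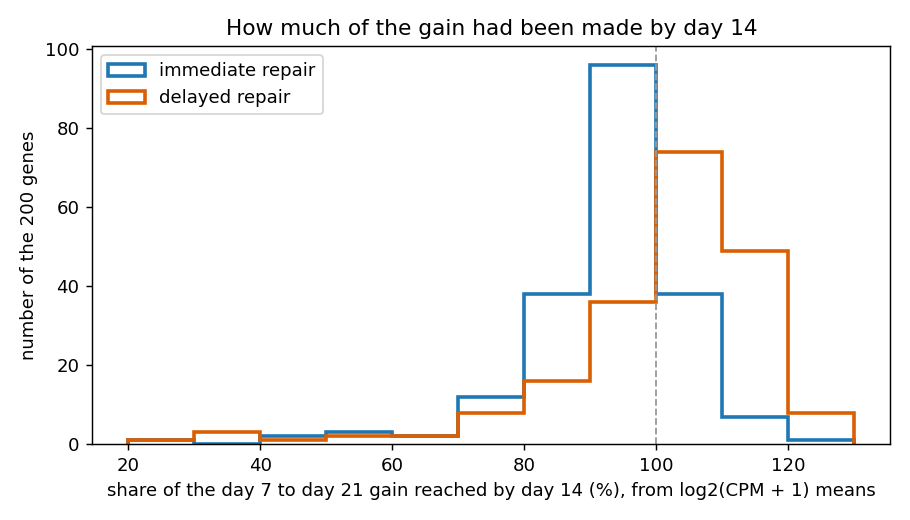
Number of the 200 genes by the share of the day 7 to day 21 gain reached at day 14, in percent, from group means of log2(CPM + 1), in bins 10 wide, for immediate (blue) and delayed (orange) repair. The dashed line at 100% marks the day 21 level, and the medians are 94.6% and 105%.

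The question whether the delay changed these genes was tested at day 14, between 4 libraries of each repair. No member passed the test. Of the 200 members 0 passed the quasi-likelihood test of edgeR at an adjusted p of 0.05, where all 30 libraries were fitted together, and 0% of the 16015 genes did (Benjamini-Hochberg over all genes tested). At an unadjusted p under 0.05 there was 1 member (0.5%) and 244 genes in all (1.52%). DESeq2 likewise called 0 members and 8 genes in all. The median log2 fold change of the members, delayed over immediate, was 0.11, and that of all genes tested was -0.01. Without immediate day 14 replicate 2 the members' median was -0.08. In 0 members were the 2 groups of libraries free of overlap, against 1.83% of all genes, 1.1% with delayed repair higher and 0.731% with it lower.

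Size limits on a difference between the repairs were wide in that fit. The 95% interval of the fold change lay inside 2-fold in either direction for 8 of the 200 members (4%), against 59.7% of all genes. The members' gene-wise spread in the fit of all libraries, day 7 included, was 67.8% (biological coefficient of variation, median), against 28.2% over all genes. With the 8 day 14 libraries alone the members' spread was 32.5%, and 22.9% over all genes. In that fit edgeR again called 0 of 199 members and 0 genes in all, with 3 members and 371 genes at an unadjusted p under 0.05. The interval then lay inside 2-fold for 110 members (55.3%), against 74.6% of all genes. In the other members a 2-fold difference was not excluded by the interval.

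Each repair was also compared with control at day 14. The control libraries had been used in choosing the members and are shared by these 2 comparisons, whose values are therefore given side by side. In the fit of all libraries 4 members fell below control after immediate repair and 0 rose, where edgeR called 51.4% of all genes tested, 25.4% lower and 26.1% higher. After delayed repair 10 members fell and 0 rose, where 51.9% of all genes were called, 25.7% lower and 26.2% higher. The median log2 fold change of the members was -0.22 after immediate and -0.05 after delayed repair. It was 0.01 and -0.00 over all genes. A fold change of at least 2 was seen in 21 members (10.5%) in each repair, against 38.8% and 39.0% of all genes. At least 4-fold differed 1 and 4 members, against 21.1% and 21.2% of all genes.

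These counts depended on the libraries that set the spread. With only the day 14 and control libraries fitted, edgeR called 50 members after immediate repair, 38 lower and 12 higher, where 60.8% of all genes were called, 30% lower and 30.8% higher. After delayed repair it called 100 members, 53 lower and 47 higher, where 64.7% of all genes were called, 31.9% lower and 32.8% higher. The members' median coefficient of variation in these fits was 28.9% and 20.0%, against 20.8% and 18.2% over all genes. In both repairs 35 members were called lower and 12 higher, and 0 were called in opposite directions. Without a model, the libraries of day 14 and control did not overlap in 23 members after immediate repair (20 lower and 3 higher), against 50.7% of all genes, 21.8% lower and 28.9% higher. They did not overlap in 56 members after delayed repair (27 lower and 29 higher), against 53.8% of all genes, 22.6% lower and 31.2% higher.

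The 11 members called in at least 1 of the 2 repairs in the fit of all libraries, all lower than control, held the ranks 7, 42, 55, 110, 156, 163, 165, 166, 174, 175 and 182. The members of rank 55, 163 and 165 were called in both repairs. They were mostly weakly expressed genes, with a control level from 2.62 to 6.30 on the log2(CPM + 1) scale and a median of 3.64, against 5.54 for the whole set. By day 14 they had made a median of 69.3% of their gain after immediate and 59.0% after delayed repair. A low day 14 level had picked them, so a low share follows from the choice and nothing is read from it.

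ENSRNOG00000010784, of rank 165, and ENSRNOG00000024620, of rank 156, were picked as the lowest members at day 14. Both are among the members called lower than control above. Their day 14 levels picked them, so those levels are given as a description and no p-value against control is added. The lowest was ENSRNOG00000010784. Control libraries 1 to 5 had 4.75, 8.52, 7.28, 5.41 and 9.84 CPM. All 9 libraries of day 7 had 0 counts, so neither repair showed the gene at this depth. At day 14 it was at 0.276, 0.466, 0.579 and 1.29 CPM in immediate replicates 1 to 4. In the delayed replicates it was at 0.323, 0.396, 1.23 and 0.392 CPM. Each of these 8 libraries lay below each control library. The group means were 0.654 ± 0.445 and 0.584 ± 0.429 CPM (SD, n = 4 each), against 7.16 ± 2.12 CPM in control (SD, n = 5). At day 21 the immediate libraries had 4.14, 6.62, 6.16, 0 and 10.4 CPM and the delayed libraries 6.11, 7.34 and 1.74 CPM. Immediate replicate 4 and delayed replicate 3 thus stayed below control, and the other 6 libraries were at or near its range.

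ENSRNOG00000024620 was low at day 14 from a higher control level. It had 15.6 to 23.8 CPM in the control libraries, with a median of 19.0. At day 7 the immediate libraries had 0.934, 2.22, 0.193 and 0.0836 CPM, and the delayed ones 0.986, 0.275, 0.575, 2.76 and 3.52 CPM. At day 14 it was at 3.59, 10.4, 5.21 and 11.3 CPM after immediate repair and 2.39, 1.90, 12.1 and 4.37 CPM after delayed repair. The libraries of days 7 and 14 did not overlap after immediate repair and did after delayed repair, and each day 14 library was below each control library. The group means were 7.62 ± 3.80 and 5.18 ± 4.71 CPM (SD, n = 4 each), against 18.8 ± 3.27 CPM in control (SD, n = 5). At day 21 it was at 35.2, 21.5, 19.0, 12.2 and 31.0 CPM after immediate repair and 14.0, 10.8 and 9.15 CPM after delayed repair, all 3 delayed libraries below control.

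ENSRNOG00000017164, which ranked first, had the largest of the smaller gains, 5.39 on the log2(CPM + 1) scale. Control libraries had 193, 177, 175, 151 and 127 CPM. At day 7 it was at 0.0623, 0.739, 0 and 0 CPM after immediate repair and at 0, 0, 4.66, 3.91 and 4.33 CPM after delayed repair. No day 7 library came near control, and delayed replicates 3, 4 and 5 stood above the rest. At day 14 the immediate libraries had 58.0, 44.7, 157 and 146 CPM and the delayed ones 65.2, 61.6, 119 and 66.2 CPM. Immediate replicates 3 and 4 were within the control range and the other 6 libraries below it. Against control the log2 fold change was -0.83 after immediate (SE 0.74, edgeR adjusted p = 0.363) and -1.22 after delayed repair (SE 0.75, edgeR adjusted p = 0.178). With only the 2 groups fitted, edgeR gave -1.18 after delayed repair at an adjusted p of 0.000292. The control libraries had been used in choosing this gene, so these p-values against control are not independent of the choice. The same holds for the member of rank 2 below. At day 21 the immediate libraries had 210, 272, 196, 19.8 and 321 CPM, and the delayed libraries 177, 167 and 48.4 CPM. Again immediate replicate 4 and delayed replicate 3 were the lowest, while the other immediate libraries exceeded every control library.

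ENSRNOG00000061379, which ranked second, was nearer to control at day 14. In control it had 339, 327, 160, 395 and 502 CPM. At day 7 it was at 1.74, 0, 0.258 and 0 CPM after immediate repair and at 0.164, 0, 13.1, 14.0 and 46.7 CPM after delayed repair. At day 14 the immediate libraries had 303, 102, 254 and 190 CPM and the delayed ones 205, 271, 337 and 286 CPM. All 4 delayed and 3 of the 4 immediate libraries were inside the control range, and neither repair passed the test against control (log2 fold change -0.84, SE 0.90, edgeR adjusted p = 0.457 after immediate and -0.48, SE 0.89, edgeR adjusted p = 0.681 after delayed repair). At day 21 it was at 118, 557, 211, 121 and 445 CPM after immediate repair and 244, 291 and 169 CPM after delayed repair. Immediate replicates 1 and 4 were below every control library. Between the repairs at day 14, none of the 4 genes passed the test, with an edgeR adjusted p of 1 for each and log2 fold changes, delayed over immediate, between -0.57 and 0.36.

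**Figure D4:**
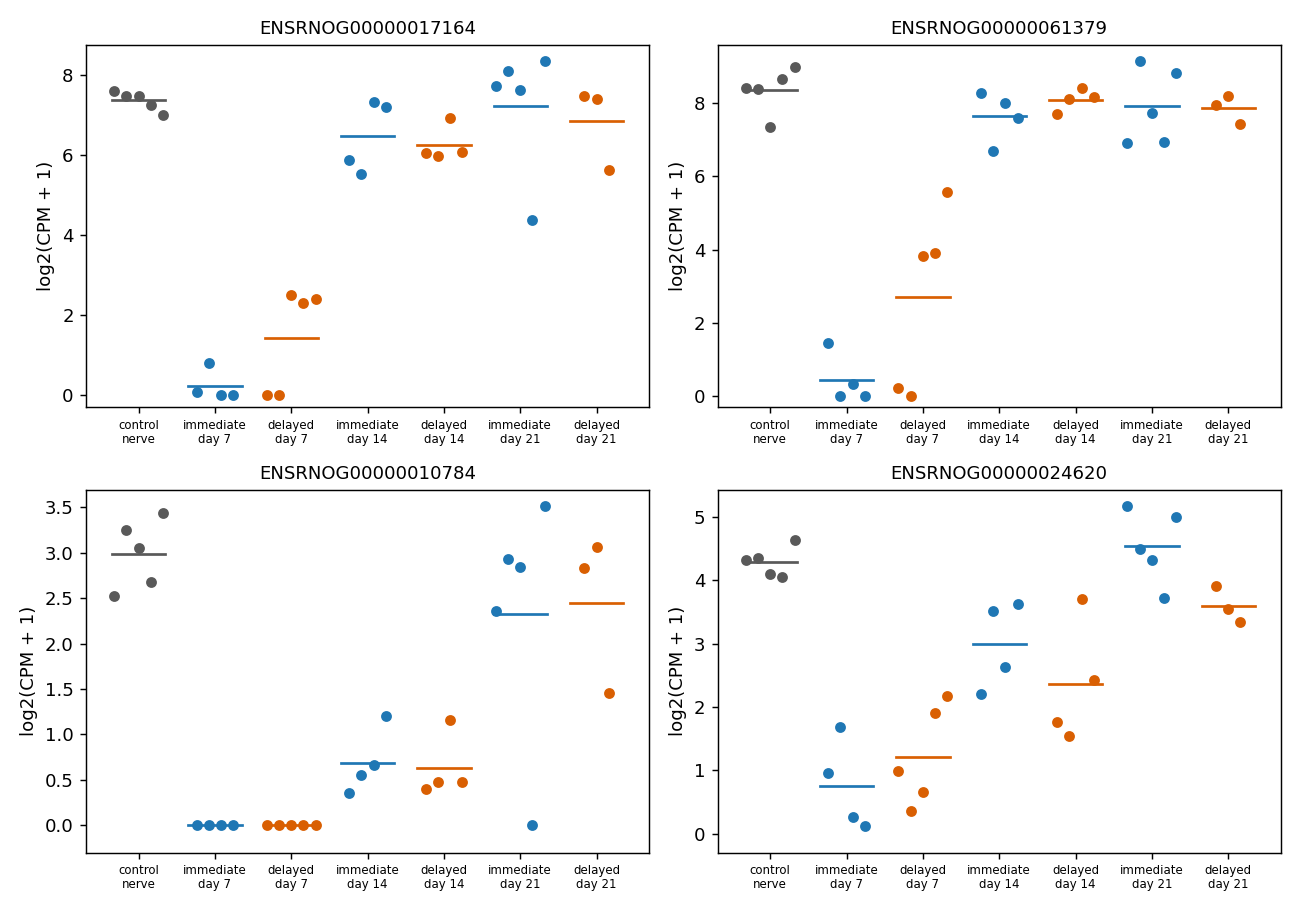
Level of 4 of the genes in every library, in log2(CPM + 1), with lines at the group means, for control (grey), immediate repair (blue) and delayed repair (orange), points in replicate order. ENSRNOG00000010784, at 0 counts in all 9 day 7 libraries, is below every control library in all 8 day 14 libraries, while ENSRNOG00000061379 is inside the control range in 7 of them.

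The set was then divided by day 14 level. In 21 members the mean was more than 0.75 below control in both repairs at day 14, in 144 it was within 0.75 in both, in 2 it was above in both, and the other 33 were placed differently in the 2 repairs. The division uses the day 14 values, so the levels of these classes at day 14 carry no test. The 21 were weaker genes in control, with a median of 22.7 CPM and a range from 4.77 to 165 CPM, against a median of 49.8 CPM in the 144. Their median difference from control was -3.72 in immediate and -3.42 in delayed repair at day 7. It was -1.22 and -1.27 at day 14, and then -0.13 and -0.53 at day 21. They had made a median of 72.7% of their gain by day 14 in each repair, from 29.6% to 92.9% after immediate and from 25.7% to 96.1% after delayed repair. The 144 had made 96.1% and 106% of their gain. At day 21 the group mean was below control in 18 of the 21 after delayed repair and in 13 after immediate repair. Among the 144 it was below control in 75 and 51. The class is defined by its level at day 14, and a difference in timing was not tested. The split of the 21 by library at day 21 is given below.

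The 2 classes ranked the immediate libraries of day 14 differently. The 21 members below control stood at a median of 26.1%, 25.3%, 66.8% and 60.0% of control in immediate replicates 1 to 4. The 144 stood at 133%, 59.5%, 88.8% and 111% in the same libraries. Immediate replicate 1 was thus the highest for the 144 and among the 2 lowest for the 21. In delayed replicates 1 to 4 the 21 were at 31.7%, 28.7%, 66.9% and 33.4%, and the 144 at 98.1%, 96.2%, 134% and 109%. There the order of the libraries was the same for both classes, with replicate 3 the highest.

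At day 21 the same 21 genes were split by library. In immediate replicates 1, 2, 3 and 5 their median was 113%, 138%, 118% and 195% of control. In immediate replicate 4 it was 9.34%, that library was the lowest of its group in 21 of the 21 genes, and it lay below every control library in all 21. In delayed replicates 1, 2 and 3 the median was 111%, 103% and 30.5%, and replicate 3 was the lowest in 20 of the 21. The 144 members differed less between the same libraries, at 95.8%, 129%, 107%, 77.5% and 140% in the 5 immediate and 99.0%, 117% and 76.0% in the 3 delayed libraries. Outside both classes, the member of rank 5 was at 84.1, 79.3, 49.9, 0.189 and 78.6 CPM in immediate replicates 1 to 5 at day 21, against 21.7 ± 1.25 CPM in control (SD, n = 5). Its group mean met the day 21 bound although 4 of the 5 libraries were far above control and the other was near 0.

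**Figure D5:**
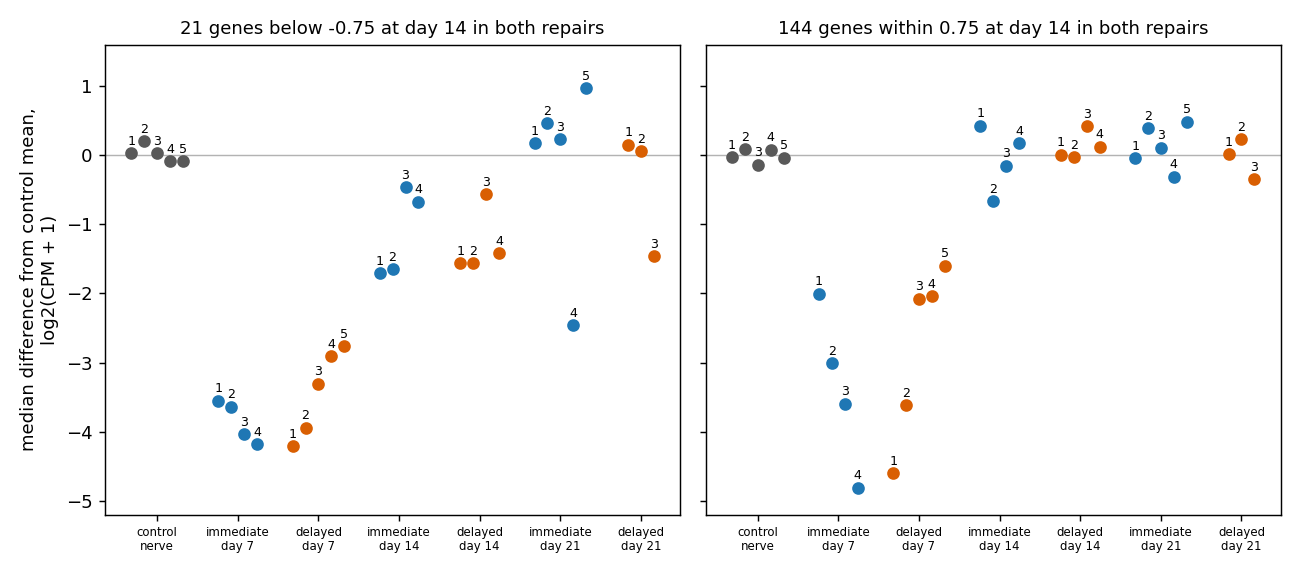
Median difference from the control mean in each library, in log2(CPM + 1), for the 21 genes below -0.75 at day 14 in both repairs (left) and the 144 genes within 0.75 in both (right), with replicate numbers above the points. At day 21 immediate replicate 4 lies at -2.46 and delayed replicate 3 at -1.46 on the left, and at -0.31 and -0.35 on the right.

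Over all 200 members the libraries of day 21 differed less than over the 21. The bounds of the rule held the group means within 0.75 of control, and the medians were 0.14 after immediate and -0.08 after delayed repair. Delayed repair had the lower mean in 142 members and the higher in 58, with a median difference of -0.13. The rule used the day 21 values, and the matching shares over all genes are not given here. Nothing about the members is therefore read from this count. By library, the median member stood at 99.9%, 133%, 108%, 69.3% and 146% of control in immediate replicates 1 to 5 and at 99.8%, 118% and 72.5% in delayed replicates 1 to 3. Immediate replicate 4 was the lowest of its group in 128 members, against 30.4% of all genes, and delayed replicate 3 in 157, against 39.6%. With both of these libraries left out, 532 genes met the bounds, and 150 of the 200 members were still among the 200 highest. The summed level of the members was 32949 ± 5400 CPM after immediate (SD, n = 5) and 30811 ± 4198 CPM after delayed repair (SD, n = 3), against 28222 ± 2592 CPM in control (SD, n = 5).

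The 2 members above control by more than 0.75 at day 14 in both repairs held the ranks 91 and 119, which were looked up after the day 14 values were seen. The member of rank 91 had 171 to 273 CPM in control, 202 to 646 CPM at day 14 after immediate repair and 357 to 466 CPM after delayed repair. All 4 delayed and 3 of the 4 immediate libraries were above every control library, and immediate replicate 2 was inside the control range. The member of rank 119 had 5.90 to 11.6 CPM in control, 7.74 to 34.1 CPM after immediate and 13.0 to 21.6 CPM after delayed repair at day 14. For this gene immediate replicates 1 and 2 were inside the control range and the other 6 libraries above it.

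The members were also divided by their control level. The 67 members of lowest control level, up to 28.9 CPM, had median day 14 differences of -0.00 after immediate and -0.02 after delayed repair. The 67 of highest control level, from 75.6 CPM, had -0.11 and 0.19. Members more than 0.75 below control were more frequent among the former, at 16 and 15, than among the latter, at 8 and 4, in immediate and delayed repair.

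The smaller gain of the members of rank 199 and 200 was 2.20 and 2.19, and that of the next genes outside was 2.18 and 2.17. A further 267 genes met the same bounds with smaller gains. Their median differences from control were -2.14 in immediate and -1.85 in delayed repair at day 7. They were -0.30 and -0.20 at day 14, when 84.3% and 90.3% of these genes lay within 0.75 of control. At day 21 they were -0.13 and -0.37. The member farthest from control at day 21 lay 0.749 away, and the nearest gene outside with a gain of member size lay 0.752 away. There were 396 genes with such a gain outside the day 21 bound. The member nearest the day 7 bound of -1.5 had -1.63, and 0 genes outside that bound met the day 21 bounds with a gain of member size.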

How the data were processed

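Poly(A) RNA of 30 rat nerve libraries had been sequenced; per the labels' protocols, 400 ng of RNA with an integrity number above 6 went into each unstranded library, so overlapping and antisense genes cannot be told apart. The authors deposited raw counts per gene, with replicates not pooled. Tools named in the submitters' processing notes, without their roles, are DESeq2 1.38.3, featureCounts 1.5.0-p3 and HISAT2 2.0.5. The build, the annotation and how reads of near-identical genes were counted: not given in the sources used here.

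CPM was computed from the deposited counts by column total, with a pseudocount of 1 before log2 and no length scaling. The members and lists were chosen with earlier results of these data known. Gene lists by symbol and promoter motifs could not be applied, because 0 IDs matched the symbol table. The rule for naming, the highest ranks, was reduced after seeing the data to 2 IDs of highest rank and 2 lowest at day 14; other members mentioned by rank were picked for their values.

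The main test was edgeR 4.0.16 (R 4.3.3): filterByExpr by group (16015 genes, 49.2%), TMM factors, 7 groups of 30 libraries in 1 robust quasi-likelihood fit, Benjamini-Hochberg over all genes, threshold 0.05. The script was tested on simulated data. None of the 51 replicate pairs agreed within sampling noise (chi-square over its degrees of freedom at least 14.9). Alternatives were DESeq2 1.42.0, RLE factors, no filter, the compared groups alone, a replicate block, each library left out, and, added after seeing the data, limma 3.58.1 voom with quality weights and 2 sets of libraries left out.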

Additional observations from a re-analysis of the deposited data

Results flagged for a closer look

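Of 36 sets of values over a group of 4 or 5 libraries, 24 were of the 4 genes given by ID and 12 of the median and the summed level of the 200 members. In 4 of the 24, and in 0 of the 12, 1 library lay far from the others. Chance gives about 1 in 20 for independent, normally distributed values. CPM near 0 and genes measured in the same libraries need not meet that, so the rate is only a rough guide. The day 7 sets of ENSRNOG00000010784 were at 0 counts throughout and could not be flagged. ENSRNOG00000010784 was at 1.23 CPM in delayed day 14 replicate 3, with the other 3 libraries between 0.323 and 0.396 CPM. ENSRNOG00000017164 was at 119 CPM in the same library, with the others between 61.6 and 66.2 CPM. That gene was also at 0.739 CPM in immediate day 7 replicate 2, where the others had at most 0.0623 CPM. ENSRNOG00000061379 was at 1.74 CPM in immediate day 7 replicate 1, where the others had at most 0.258 CPM. Delayed day 14 replicate 3 was the highest of its group in 131 of the 200 members, against 35.8% of all genes tested.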

How the results depend on the processing

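Between the repairs at day 14, 0 members were called under every alternative run, while the count over all genes, 0 in the fit of all libraries, was 8 with DESeq2 and 2 with voom, which was added after seeing the data. The members called against control at day 14, 4 after immediate and 10 after delayed repair, were 1 and 5 without the filter, 50 and 100 with the compared groups alone, and 45 and 67 with voom. DESeq2 called 7 members after immediate repair. With the replicate number as a block they were 1 and 5. Whether the numbers pair the samples could not be settled. Same-numbered day 14 libraries of the 2 repairs correlated at 0.08, 0.41, 0.30 and 0.15. Delayed replicates 2, 3 and 4 correlated best with the immediate library of their own number, and delayed replicate 1 with immediate replicate 3. With so few libraries in each repair, this check cannot tell pairing from its absence. Leaving out 1 library gave 1 to 4 members after immediate repair, with 1 without control replicate 2 or 5 or immediate replicate 2, and 2 without control replicate 3 or immediate replicate 1. It gave 4 to 12 after delayed repair, with 4 without control replicate 2, 5 without delayed replicate 1, 2 or 4, and 6 without control replicate 1 or 4. Counts over all genes against control stayed within 1.5 times. With the group median in place of the mean, 119 of the 200 members were among the 200 highest. Other scalings, a pseudocount of 0.5 and leaving out 1 library kept 168 to 200. ENSRNOG00000010784, delayed over immediate at day 14, changed from -0.16 to 0.04 without delayed replicate 1 and to 0.39 without immediate replicate 4, within a range from -0.79 to 0.39 on leaving out 1 library. Leaving out immediate day 14 replicate 2 turned the members' median from 0.11 to -0.08. Depth limits members under 1 CPM at day 7.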
